A study of Mus musculus with 4 samples.

Results

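This account covers 36 mouse genes of sterol and fatty acid synthesis and of their control by SREBP (sterol regulatory element binding protein), out of 21887 protein-coding genes. They were taken from a fixed list of names and were all found in the RefSeq annotation of GRCm38.p6, whose coordinates are those of mm10. The list held 21 genes of the sterol branch, 10 of the fatty acid branch and 5 SREBP regulators. In the study, chromatin of jejunum and ileum was immunoprecipitated for SHP, the small heterodimer partner encoded by Nr0b2, and sequenced (ChIP-seq). The wild-type group was C57BL/6 mice, and the knockout group was SHP-KO mice of the same strain background. All mice were 8 to 12 weeks old, had been fasted for 12 h and had eaten normal chow for 4 h, so no fasted group was compared. Each of 3 sets was pooled from 3 mice, and 1 peak list per genotype was analysed here, with 5775 peaks in wild type and 7 in the knockout. The tissue was whole gut segment, and the cell types behind a peak cannot be told apart.

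SREBPs are membrane-bound transcription factors of the endoplasmic reticulum. When sterols are low, Scap escorts them to the Golgi for cleavage, the released domain enters the nucleus, and genes of cholesterol and fatty acid synthesis are transcribed. When sterols are high, Insig proteins hold the Scap complex in the endoplasmic reticulum. SREBP sites in promoters commonly lie beside sites for NF-Y, which binds CCAAT, and for SP1, which binds GC-rich boxes. SHP is a nuclear receptor without a DNA-binding domain and is known as a feeding- and bile acid-responsive repressor that acts through partners such as LRH-1.

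A gene was counted as occupied when the summit of a wild-type peak lay within 5 kb of either of its ends. Of the 36 genes, 13 were occupied (36.1%, 95% exact binomial interval 20.8 to 53.8), beside 26.4% of all protein-coding genes. The 13 were Srebf1, Srebf2 and Scap among the regulators, Hmgcs1, Mvk, Fdps, Ggps1, Sqle, Tm7sf2 and Mylip in the sterol branch, and Acly, Acss2 and Elovl5 in the fatty acid branch. The interval of the 36 genes held the share of all genes. Intervals cover counting error only and treat genes as independent, and no test was made. Read depth is not given in the sources used here, so a gene without a peak was not shown to lack SHP.

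Some promoters that the results turn on are shown by the 150 bases just before the annotated transcription start, 5′ to 3′ in the gene's direction, from RefSeq on GRCm38.p6. Capitals mark CCAAT on either strand (ATTGG when on the other strand) and the sterol regulatory element TCACNCCAC. The first set had an SHP summit within 1 kb of the start. Srebf1, Scap, Ggps1 and Acly, which also had one, are not shown. Of these, Srebf1, Scap and Acly had no CCAAT in the 150 bases before the start near the summit. Hmgcs1 (chr13:119690201-119690350, plus strand) held the strongest peak of the 36 genes, Mvk (chr5:114444119-114444268, plus) the most CCAAT boxes, and Srebf2 (chr15:82147119-82147268, plus) a summit at the start itself. Mylip (chr13:45389592-45389741, plus), Elovl5 (chr9:77917215-77917364, plus) and Acss2 (chr2:155517893-155518042, plus) had summits just inside the gene. Acacb (chr5:114165368-114165517, plus) is shown for a start that lies inside the annotated gene.
Hmgcs1: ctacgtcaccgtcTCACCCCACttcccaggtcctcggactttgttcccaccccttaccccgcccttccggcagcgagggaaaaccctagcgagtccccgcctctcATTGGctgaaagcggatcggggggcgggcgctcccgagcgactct
Mvk: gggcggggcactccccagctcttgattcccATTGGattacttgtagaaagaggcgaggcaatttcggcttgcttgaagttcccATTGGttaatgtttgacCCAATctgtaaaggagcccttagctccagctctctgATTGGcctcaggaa
Srebf2: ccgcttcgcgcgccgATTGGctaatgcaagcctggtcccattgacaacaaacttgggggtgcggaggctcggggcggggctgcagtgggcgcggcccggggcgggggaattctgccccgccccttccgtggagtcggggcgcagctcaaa
Mylip: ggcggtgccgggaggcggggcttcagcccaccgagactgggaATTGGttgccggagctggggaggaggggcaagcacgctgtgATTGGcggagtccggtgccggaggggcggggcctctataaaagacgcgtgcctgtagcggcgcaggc
Elovl5: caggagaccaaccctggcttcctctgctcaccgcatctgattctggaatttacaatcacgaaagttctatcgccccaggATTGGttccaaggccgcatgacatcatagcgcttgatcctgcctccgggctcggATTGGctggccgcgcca
Acss2: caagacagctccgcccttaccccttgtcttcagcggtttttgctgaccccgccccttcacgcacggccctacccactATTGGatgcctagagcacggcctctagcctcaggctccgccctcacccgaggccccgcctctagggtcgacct
Acacb: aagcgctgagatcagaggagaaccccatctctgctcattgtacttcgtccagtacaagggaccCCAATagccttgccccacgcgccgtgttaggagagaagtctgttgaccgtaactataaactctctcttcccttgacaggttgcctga

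Some promoters of sterol branch genes with no SHP summit within 100 kb are shown beside them, since they also carry CCAAT. They do not hold TCACNCCAC, and other genes of the branch as far from a summit are not shown. These were Idi1 (chr13:8885456-8885605, plus strand), Msmo1 (chr8:64733579-64733728, minus) and Nsdhl (chrX:72918371-72918520, plus).
Idi1: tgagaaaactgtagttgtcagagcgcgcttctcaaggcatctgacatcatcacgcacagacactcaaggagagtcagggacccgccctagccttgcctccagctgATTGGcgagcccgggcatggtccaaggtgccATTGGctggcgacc
Msmo1: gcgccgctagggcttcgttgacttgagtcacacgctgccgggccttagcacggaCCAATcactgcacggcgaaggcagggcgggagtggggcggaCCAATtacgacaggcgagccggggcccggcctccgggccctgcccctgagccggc
Nsdhl: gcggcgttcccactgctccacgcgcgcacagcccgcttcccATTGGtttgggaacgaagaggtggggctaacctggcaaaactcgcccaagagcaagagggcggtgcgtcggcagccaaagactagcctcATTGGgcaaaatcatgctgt

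Among the regulators, 3 of 5 were occupied (60.0%, 95% exact interval 14.7 to 94.7), an interval that held the 26.4% of all protein-coding genes. The occupied ones were the genes of both SREBPs and of their escort, and the others were those of the retention proteins. The values below are the enrichment values that the authors deposited for each peak (column 7 of the list, scale not stated), whose median over the 5775 peaks was 5.65. Srebf2, the SREBP of cholesterol synthesis, had a peak at chr15:82146976-82148237 with the summit 1 bp outside the gene, at its annotated start, and a value of 4.55. A further Srebf2 peak, with a value of 4.87, lay 2037 bp beyond the other end and was nearer to Shisa8 (1243 bp). Srebf1, the SREBP gene tied most to fatty acid synthesis, had a peak at chr11:60222399-60223296 with a value of 5.31. Its summit lay 1315 bp inside the gene, and at -290 bp from an annotated start (negative values are before the start). An end of Tom1l2 lay 3843 bp from that summit. Both SREBP genes therefore had values under the median of the list.

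Scap, the sterol-sensing escort, had 2 peaks. That at chr9:110333251-110333846 had its summit 105 bp after an annotated start and a value of 5.32. The higher one, 6.52, lay 4362 bp inside the other end, and Ptpn23 ended 4497 bp from it. Insig1 and Insig2, which retain Scap, had their nearest summits 83398 and 1183128 bp away. For Insig2 this was the longest distance among the 36 genes, as the plot of nearest summits shows.

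**Figure D1:**
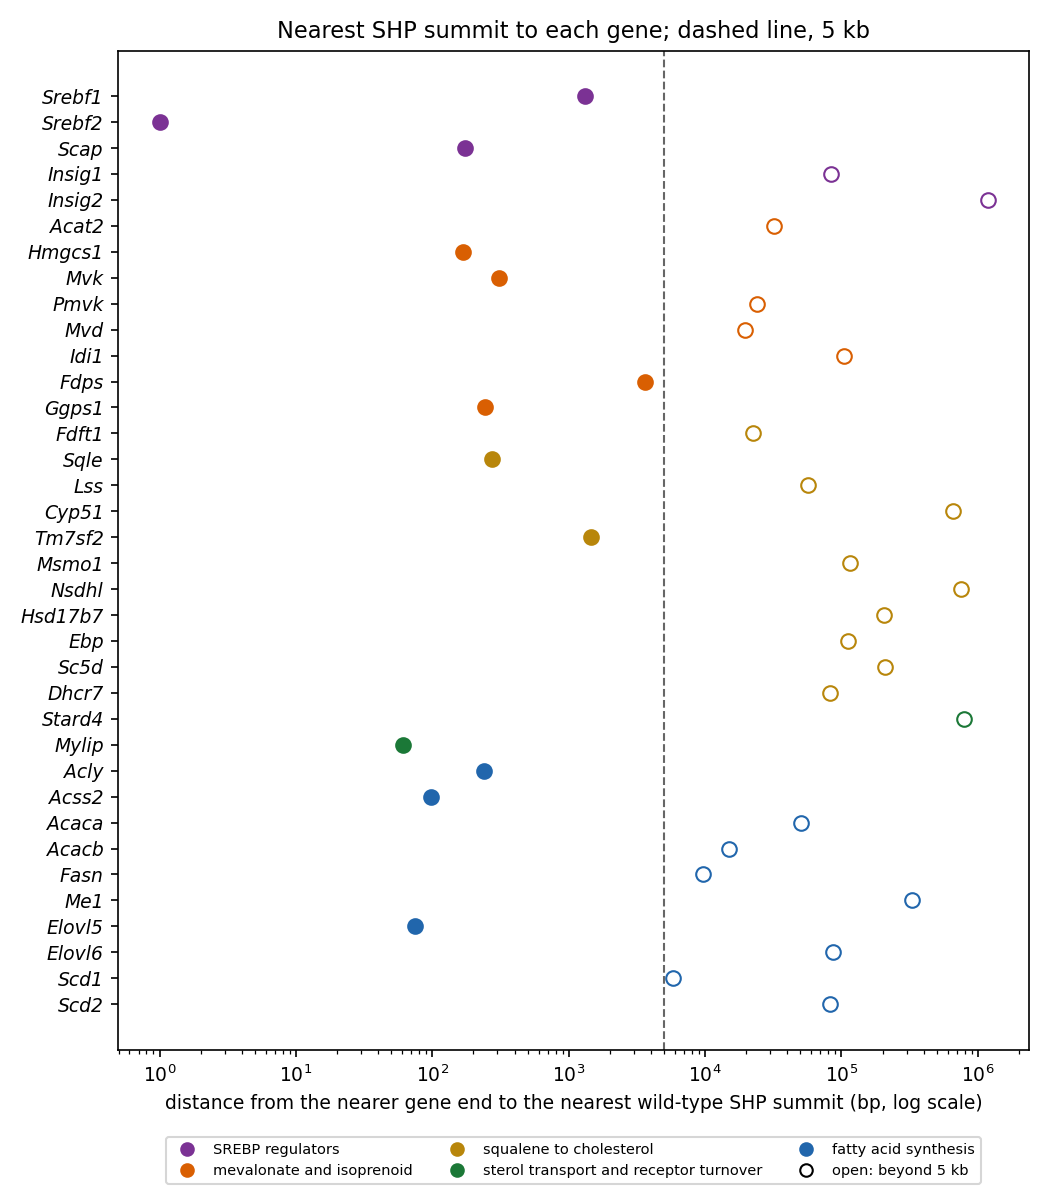
Distance in bp (log scale) from the nearer end of each of the 36 genes to the nearest wild-type SHP summit, with genes in order of role and the 5 kb rule as a dashed line. Filled points are the 13 occupied genes, and open points are the other 23, of which Scd1 lay closest to the line at 5773 bp.

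In the mevalonate and isoprenoid part of the sterol branch, which builds farnesyl and geranylgeranyl units from acetyl-CoA, 4 of 8 genes were occupied (95% exact interval 15.7 to 84.3%, beside 26.4% of all protein-coding genes). Hmgcs1, the cytosolic HMG-CoA synthase, had the highest value of all 36 genes. Its peak at chr13:119690065-119691126 had a value of 9.96, ranked 20 among 5775 peaks, and was 1.76 times the list's median. The summit lay 169 bp inside the gene, and no other protein-coding gene ended within 5 kb of it. Of the 5778 occupied genes, 99.6% had a lower value.

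The other occupied genes of that part lay beside neighbours. Mvk, mevalonate kinase, had a peak at chr5:114443816-114444523 with a value of 5.48. Its summit lay 310 bp outside Mvk and 119 bp from an end of Mmab, an enzyme of cobalamin metabolism, so the peak cannot be given to one of the pair. Ggps1, which makes geranylgeranyl diphosphate, had a peak of 5.04 whose summit lay 242 bp inside the gene, at chr13:14062897-14063540. An end of Arid4b, a chromatin factor gene, lay 285 bp from that summit. A higher peak of 7.20 at chr13:14063747-14065000 lay 458 bp outside Ggps1 and 415 bp from Arid4b. Fdps, farnesyl diphosphate synthase, had a summit 3633 bp outside the gene with a value of 3.92, which only 3.89% of occupied genes fell below. That summit was nearer to Rusc1 (3408 bp).

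The unoccupied genes of that part were Mvd, Pmvk, Acat2 and Idi1. The nearest summits to Mvd, the mevalonate diphosphate decarboxylase, and Pmvk, phosphomevalonate kinase, were 19752 and 24199 bp away. Those to Acat2, which makes acetoacetyl-CoA, and Idi1, the isopentenyl diphosphate isomerase, were 31824 and 103718 bp away. Within 50 kb or inside the gene, 7 of the 8 genes had a summit, all but Idi1, where 48.4% of all protein-coding genes had one.

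From squalene to cholesterol, 2 of 11 genes were occupied (18.2%, 2.28 to 51.8), an interval that held the 26.4% of all protein-coding genes. Sqle, squalene epoxidase, a rate-controlling enzyme, had a peak at chr15:59314598-59315548 and a value of 6.87, and its summit was 275 bp outside the gene. No other protein-coding gene ended within 5 kb of that summit. Tm7sf2, a sterol reductase, was the other. Its summits lay 1457 and 4886 bp beyond the end of the gene away from its annotated start, with values of 6.01 and 5.64. Both were nearer to other genes, the first to Znhit2 (157 bp), and both lay within 5 kb of Fau and Mrpl49. Within 1 kb of a gene end, Sqle was the single gene of these 11 with a summit (9.09%, 0.23 to 41.3, beside 20.7% of all genes).

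The remaining 9 genes of those late steps were far from any summit. Fdft1, squalene synthase, had its nearest summit 22480 bp away, Lss, lanosterol synthase, 57231 bp, and Dhcr7, which catalyses the last step to cholesterol, 82882 bp. For Ebp, Msmo1, Hsd17b7 and Sc5d, which remodel the sterol ring and its methyl groups, the distances were 110759, 115935, 205603 and 207746 bp. For Cyp51, the lanosterol demethylase, and Nsdhl they were 653025 and 757763 bp.

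Of the genes of sterol handling, Mylip was occupied. It encodes IDOL, a ubiquitin ligase that LXR induces and that degrades lipoprotein receptors. Its peak at chr13:45389380-45390612 had a value of 6.71, ranked 1066, with the summit 61 bp inside the gene at its annotated start and no other protein-coding gene end within 5 kb. Stard4, a sterol carrier, was 793317 bp from the nearest summit.

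In the fatty acid branch, 3 of 10 genes were occupied (30.0%, 6.67 to 65.2), near the 26.4% of all protein-coding genes. Within 1 kb of a gene end the same 3 of 10 had a summit (30.0%, 6.67 to 65.2), beside 20.7% of all genes. Acly and Acss2 supply cytosolic acetyl-CoA. Acss2, which makes acetyl-CoA from acetate, had a peak at chr2:155517545-155518616 and a value of 6.11, with its summit 98 bp into the gene. An end of Ggt7 lay 3250 bp from that summit. Acly, ATP citrate lyase, had a peak of 4.67 at its start, chr11:100526975-100528633, with the summit 241 bp inside. A higher peak of 6.48 lay 3575 bp beyond its other end and 5 bp from Klhl11, so the Acly value depended on the window.

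Elovl5, an elongase of polyunsaturated fatty acids, had its main peak at chr9:77917290-77917933 and a value of 5.94, with its summit 75 bp into the gene. A weak peak of 3.00 stood beside it, 306 bp outside the gene, and ranked 5722 among 5775. Scd1, stearoyl-CoA desaturase, fell just beyond the rule with a summit at 5773 bp and a value of 6.55, and Fdps at 3633 bp was the occupied gene whose nearest summit was farthest. The nearest summit to Fasn, fatty acid synthase, was 9653 bp away, with a value of 5.04. Those to Scd2, Elovl6 and Me1, a malic enzyme that supplies NADPH, were 81813, 86653 and 326232 bp away.

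The acetyl-CoA carboxylase genes had summits inside the gene but not near its ends. Acacb, the mitochondrial form, had a peak at chr5:114165704-114166170 with a value of 7.38, ranked 424, higher than at any occupied gene of the branch. Its summit lay 19510 bp inside the gene but 313 bp after an annotated start there. A second Acacb peak, with a value of 5.85, lay deeper, 39759 bp from the nearer end. Acaca, the cytosolic form, had 1 peak inside, at chr11:84179347-84180500 with a value of 6.35, 50254 bp from the gene end and at -15549 bp from its annotated start. Neither gene counted as occupied by the distance to gene ends.

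**Figure D2:**
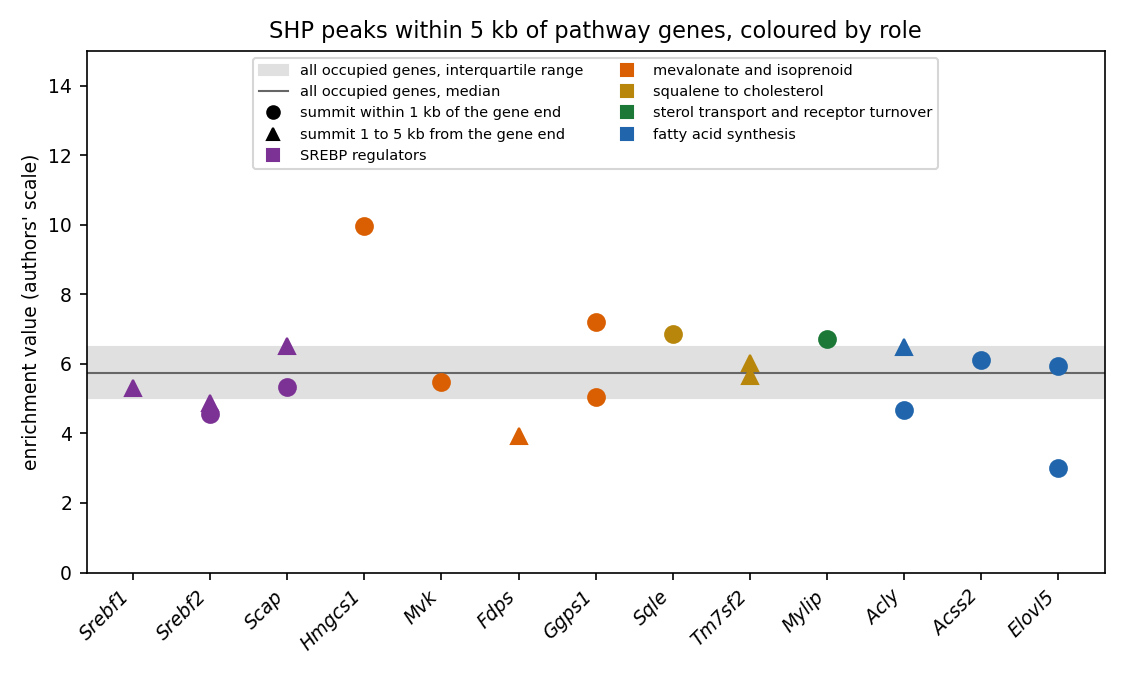
Enrichment value (the authors' scale) of each of the 19 peaks with a summit within 5 kb of 1 of the 13 occupied genes, coloured by role. Circles are summits within 1 kb of the gene end and triangles those at 1 to 5 kb, the grey band runs from 5.01 to 6.48 (quartiles of all occupied protein-coding genes) with the median of 5.73 as a line, and Hmgcs1 stands highest at 9.96.

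Taking the highest peak of each gene, the occupied genes of the sterol branch had a median value of 6.71 (range 3.92 to 9.96, 7 genes) and those of the fatty acid branch 6.11 (5.94 to 6.48, 3 genes). Srebf1, Srebf2 and Scap had a median of 5.31 (4.87 to 6.52). The median over all 13 occupied members was 6.11, beside 5.73 over all 5778 occupied protein-coding genes. With the summit nearest to a gene end in place of the highest, the order turned, with 5.48 over the 13 members and 5.64 over all occupied genes. By role these medians were 6.01 in the sterol branch, 5.26 in its mevalonate and isoprenoid part, 5.94 in the fatty acid branch and 5.31 for the regulators. Of the 19 peaks at members, 15 matched another peak of the list in both enrichment value and −log10 p. The share over the whole list was not counted.

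**Figure D3:**
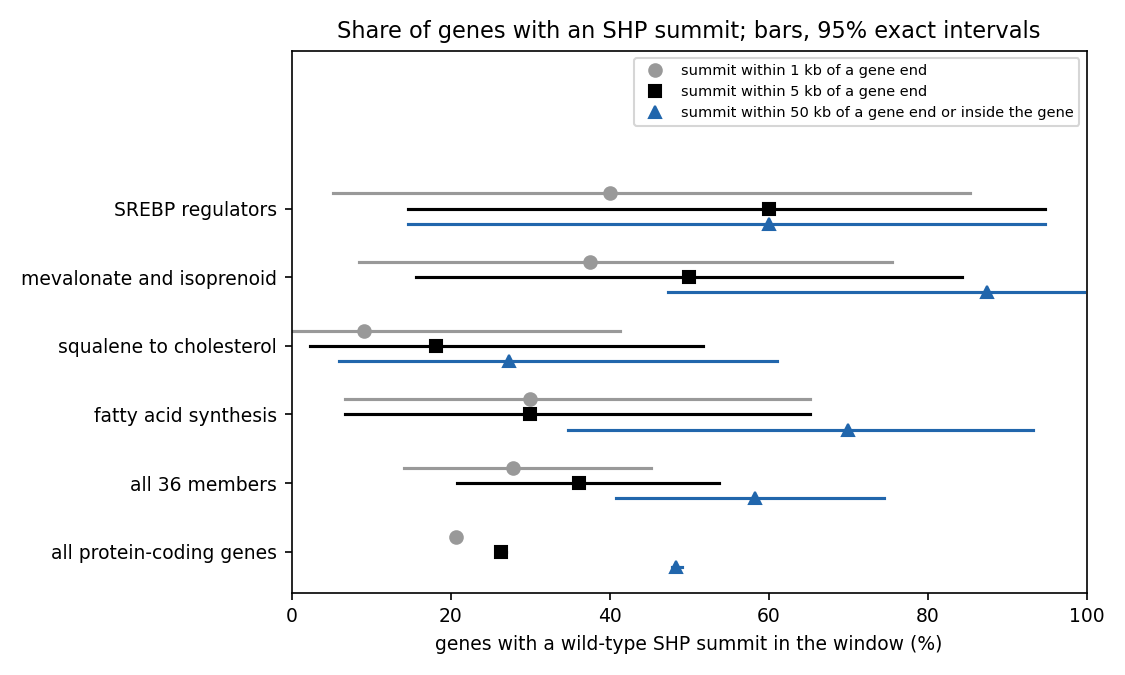
Percentage of genes with a wild-type SHP summit within 1 kb of a gene end (grey circles), within 5 kb (black squares) and within 50 kb or inside the gene (blue triangles), with 95% exact binomial intervals, for 4 roles, all 36 genes and all protein-coding genes. All 5 gene groups have wide intervals, and within 5 kb the shares run from 18.2% (squalene to cholesterol) to 60.0% (regulators), beside 26.4%.

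The window moved the counts of the members and of the genome together. Within 1 kb, 10 of 36 genes had a summit (27.8%), beside 20.7% of all protein-coding genes. These 10 were the occupied genes without Srebf1, Fdps and Tm7sf2. Within 50 kb or inside the gene, 21 of 36 had one (58.3%), beside 48.4%. When each summit was given to the protein-coding gene with the nearest end, 10 of 36 members and 4594 of the 21887 protein-coding genes kept one, and Mvk, Fdps and Tm7sf2 were lost. Among occupied members, 6 of 13 (Srebf2, Scap, Ggps1, Tm7sf2, Acly and Elovl5) had 2 summits within 5 kb, beside 11.5% of all occupied genes with 2 or more. At 4 of these 6, all but Scap and Elovl5, another gene ended nearer to at least 1 of the summits.

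Crowding of genes moved with occupancy, and its part in the counts was not tested. Another protein-coding gene ended within 5 kb of an end of 11 of the 13 occupied members and of 14 of the other 23. Over the genome the shares were 64.1% of occupied and 39.5% of other protein-coding genes. The median length of the occupied members was 22199 bp and that of the others 19209 bp. Among all protein-coding genes it was 22176 bp for occupied and 15603 bp for other genes. Of the 19 summits at members, 11 also lay within 5 kb of another protein-coding gene. Over the genome, 1430 of the 4869 summits near a protein-coding gene (29.4%) lay near 2 or more. That share counts each summit once, while the summits at members were reached gene by gene, which favours summits near several genes. The shares are therefore not like for like.

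Distances were also measured from annotated transcription starts. The promoter table had an entry for 30 members (Fdps, Fdft1, Sqle, Stard4, Scd1 and Scd2 had none) and for 17492 protein-coding genes. A summit lay within 1 kb of a start in 11 of the 30 (36.7%, 19.9 to 56.1), beside 22.1% of all genes with an entry. The 11 were Srebf1, Srebf2, Scap, Hmgcs1, Mvk, Ggps1, Mylip, Acly, Acss2, Acacb and Elovl5. Srebf1 and Acacb, missed within 1 kb of a gene end, were thus found at starts inside the annotated gene. By role these were 3 of 5 regulators, 4 of 17 sterol branch genes and 4 of 8 fatty acid genes with an entry. Of the 9 genes from squalene to cholesterol with an entry, 0 had one (exact interval 0 to 33.6%).

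The summit nearest to the start lay after it in 8 of the 11 members, as in 64.9% of the 3858 genes with a summit within 1 kb. The offsets of the members ran from -315 bp (Mvk) to 313 bp (Acacb) with a median of 98 bp, and the median of all such genes was 60 bp. In 10 of the 11 members the start lay inside the peak, the exception being Acacb. The same share was not counted over all genes, and the median width of the wild-type peaks was 978 bp.

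**Figure D4:**
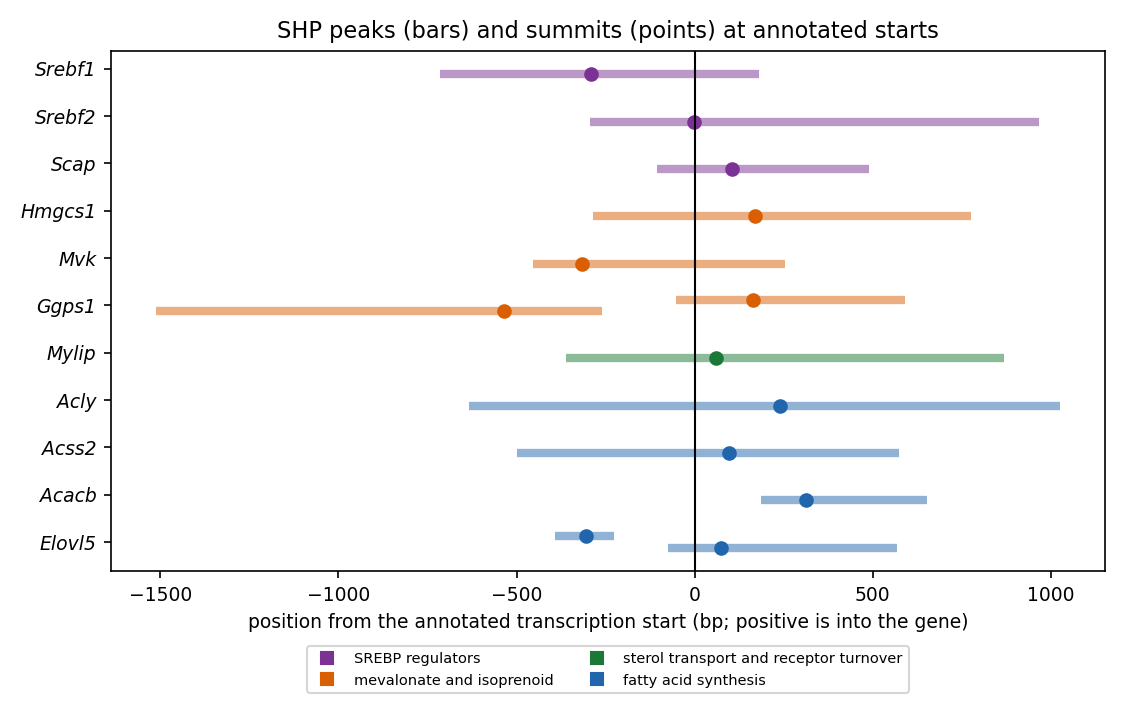
Position of SHP peaks (bars) and their summits (points) in bp from the nearest annotated transcription start, with positive values into the gene, for the 11 members with a summit within 1 kb of a start. Bars cross the start at all of them but Acacb, whose peak lies wholly after it, and Ggps1 and Elovl5 each have a second peak before the start.

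The promoters of the pathway carried CCAAT at a higher share than all promoters, both with and without an SHP summit nearby. Each entry of 300 bases ran from 250 bases before to 50 after a start, and 39 entries belonged to the 30 members. CCAAT was found on either strand in 27 of 39 entries (69.2%), beside 38.2% of all 21263 protein-coding entries. By gene it was present in 26 of 30 members (86.7%), beside 42.3% of genes, and in 16 of 17 of the sterol branch, the exception being Acat2. It was also in 4 of 5 regulators and 6 of 8 fatty acid genes. The other genes without it were Scap, Acaca and Elovl6. Mvk, with 5 matches, and Hmgcs1 and Nsdhl, with 4 each, had the most in 1 entry. In Fasn, matches at -62 and -59 on opposite strands overlapped.

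Among the members, CCAAT was in 10 of 12 entries with an SHP summit within 1 kb (83.3%) and in 17 of 27 without one (63.0%). Over the genome the shares were 36.8% with a summit and 38.6% without. Some genes have several entries. By gene, CCAAT was in 10 of 11 members with a summit and in 17 of 20 members with an entry lacking one. Over the genome these counts by gene were 1515 of 3858 and 5949 of 14073. Idi1, Msmo1 and Nsdhl, printed above, are among the members that carry CCAAT and no nearby SHP peak. The sterol regulatory element TCACNCCAC was found in 1 member entry, that of Hmgcs1 at position -137, beside 1.19% of all entries. Other forms of that element were not searched.

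GC boxes went with SHP peaks over the genome. GGGCGG, the SP1 box, was in 76.2% of all protein-coding entries with an SHP summit within 1 kb and in 38.2% of those without. Among members it was in 8 of 12 (66.7%) and 19 of 27 (70.4%), and Srebf2 and Acss2 had 5 matches each. The GC content followed the same lines, with genome-wide medians of 65.7% at entries with a summit and 53.7% without. In members the medians were 60.5% and 61.3%. The median number of CpG was 27 and 8 over the genome and 19 and 21 in members. These are values without a test. The E-box CACGTG, a palindrome counted once per entry, was in 7 of 39 entries (17.9%), beside 7.84%, among them Scap, Elovl5 and Insig1. Both Scap entries hold the same site. By gene it was in 6 of 30 members, beside 1559 of 17492 genes. CAAGGTCA, the site form of LRH-1 type receptors, was in 1 entry, of Dhcr7, beside 1.34%. That entry had no summit within 1 kb, and 0 of the 12 member entries with one held a match. Over the genome the shares were 0.961% with a summit and 1.44% without. All motifs were searched on both strands, none of the 5 contains another, and a match describes letters only.

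**Figure D5:**
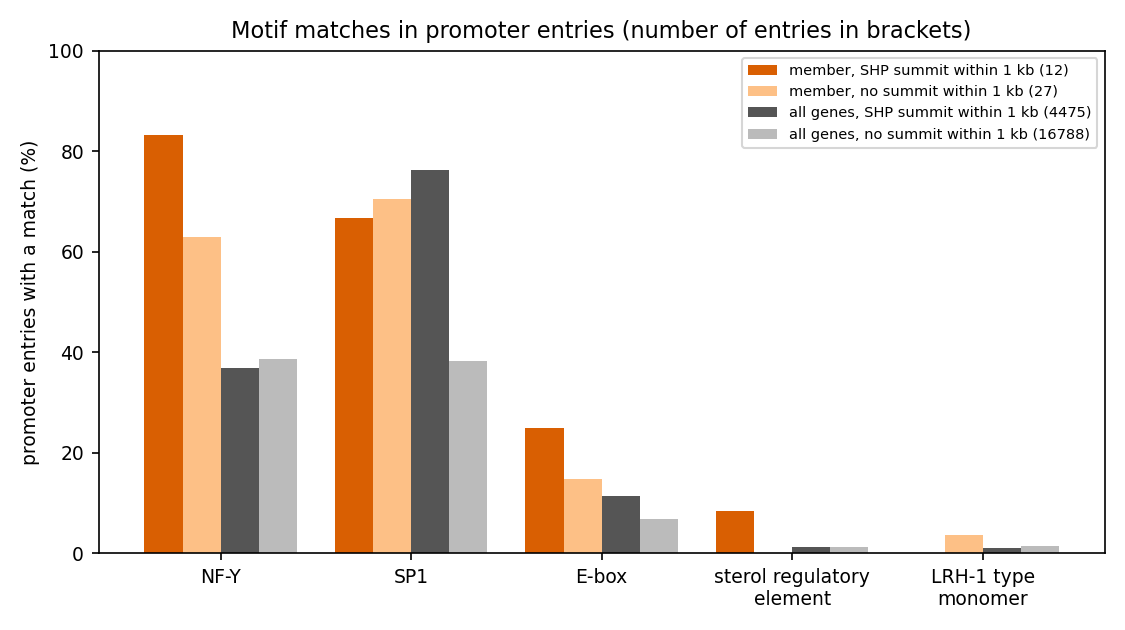
Percentage of 300-base promoter entries with a match to each of 5 motifs, for members with (12 entries) and without (27) an SHP summit within 1 kb of the start, and for all protein-coding genes with (4475) and without (16788) one. The NF-Y bars are higher in members than in all genes at either kind of entry, and the SP1 bars of all genes differ between 76.2% and 38.2%.

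The lists of further genes of these pathways were chosen with earlier results of these data known, and their share was not tested. Of their 47 genes, 19 were occupied (40.4%), beside the 26.4% of all genes, or 30.1% without chemosensory receptors, Gm and Rik names. Of SREBP traffic and turnover, 5 of 12 were, among them with values of 6.11 at both Sec23a, a COPII coat subunit, and Erlin1, 5.76 at Erlin2 and 4.97 at Mbtps1, the site-1 protease that cleaves SREBPs. Of sterol-sensing receptors and esterification, the LXR genes Nr1h3 (6.02) and Nr1h2 (5.04) were, in 2 of 4. Isoprenoid users had 5 of 8, where the prenyltransferase genes Dhdds (5.64), Coq2 (5.30), Pggt1b (4.39), Fntb (4.15) and Pdss1 (4.13) all lay under the list's median. The summits at Sec23a, Erlin1 and Mbtps1 also lay within 5 kb of Gemin2, Chuk and Hsdl1, in that order. Those at Nr1h3, Nr1h2, Dhdds and Pggt1b also lay within 5 kb of Madd, Pold1, Hmgn2 and Ccdc112.

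Carbon and NADPH supply had 3 of 7, led by Aacs, which makes acetoacetyl-CoA from ketone bodies, at 7.34. Slc25a1, the citrate carrier, had 5.40 and Pgd, of the pentose phosphate pathway, 4.67. Fatty acid elongation and desaturation had 4 of 16, at Hacd1 (5.98), Fads2 (5.85), Tecr (5.40) and Elovl4 (4.32). The median value of the 19 genes was 5.40, beside 5.73 for all occupied genes.

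No peak of the knockout list lay within 5 kb of any of the 36 genes. Of these genes, 12 were on a chromosome with a knockout peak, and the nearest knockout summit was 2488035 bp from Acly. The list held 7 peaks and was filtered differently from the wild-type list, so the absence of a knockout peak does not show that a peak at these genes needs SHP.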

How the data were processed

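SHP ChIP-seq of jejunum and ileum was analysed from 2 deposited peak lists, 1 per genotype. No file of the inputs was used here. Per the submitters' processing notes, CASAVA 1.4 and BWA were used with mm10. For peak caller, use of input, pooling of sets and read depth, nothing is given in the sources used here. The lists have no header and follow the narrowPeak layout of 10 columns. The wild-type list was named as filtered at an IDR (irreproducible discovery rate) of 0.05, and the knockout list as one of overlapping peaks. The signal in column 7, called the enrichment value, is the authors' own and its scale is not stated. The −log10 p and −log10 q and the score are also as deposited by the authors, and the last 2 were not used for any result.

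Positions were made 1-based. Gene ends came from RefSeq GRCm38.p6, 49943 genes on chromosomes 1 to 19, X and Y. That table has no exons, so exon, intron and UTR classes are not given. Annotated starts, strands and promoter sequences came from the RefSeq promoter table. Calculations used Python 3.11.15, pandas 2.3.3 and scipy 1.17.1. All 36 members and the 5 lists of further pathway genes were named as listed, and occupied genes are given with values, except 1 that is not reported here. Members and lists were chosen with earlier results of these data known. The calculation of the occupancy rule was checked on simulated peaks placed within 5 kb of chosen gene ends, so their recovery was fixed in advance. That check does not show whether a peak belongs to the gene it is counted for. Each genotype had 1 list, so no replicate error exists and no test was made.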

Additional observations from a re-analysis of the deposited data

How the results depend on the processing

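Lists were unreplicated, read depth was unknown, and counts of 3 to 13 genes limit every share. Counts that stayed within 1.5 times the main one are not repeated here. The median enrichment value of the 13 occupied members, 6.11 beside 5.73 over all occupied genes, fell under theirs with the summit nearest to a gene end (5.48 beside 5.64). Within 50 kb or inside the gene, 21 of 36 members, 11 of 21 sterol branch genes and 7 of 10 fatty acid genes had a summit, beside 48.4% of all protein-coding genes. With the nearest gene only, 4 sterol branch genes were left, since Mvk, Fdps and Tm7sf2 were lost to neighbours. Of all 21887 protein-coding genes 4594 were left, a share slightly above that of the branch. Near annotated starts, a setting chosen after seeing the data, 4 sterol branch genes were counted of 17 with an entry (23.5%), beside 22.1% of all genes with one. With only peaks from the median upward, by −log10 p or by enrichment value, 1 of 5 regulators was left in each case, where 14.8% and 13.9% of all protein-coding genes were, and of the members 9 each. Without chemosensory receptors, Gm and Rik names the background was 30.1%. With −log10 p in place of the enrichment value, which is another scale, medians were 18.3 in the sterol branch, 17.1 in the fatty acid branch and 17.1 over all occupied members, beside 15.4 over all occupied genes. No paired analysis was possible because each group had 1 list and no result came from a test.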
